A study of Rattus norvegicus with 25 samples.

Results

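The genes described here are 8 striatal neuropeptide and opioid receptor genes, measured in the striatum of dopamine-lesioned rats given levodopa with or without trapidil. They comprise 5 peptide precursors (Pdyn, Penk, Tac1, Trh and Cartpt) and 3 opioid receptors (Oprm1, Oprd1 and Oprk1). They were picked by symbol from a table of 28909 gene names, with no threshold on a measured value, though earlier results of these data were known when they were chosen. All 8 passed the filter on low counts, which kept 14142 genes for testing.

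Every animal was a female Sprague Dawley rat with a 6-OHDA lesion, a toxin lesion that destroys dopamine neurons and models Parkinson's disease. Each received levodopa, the dopamine precursor, at 6 mg/kg once daily; the series title names it together with benserazide, which blocks its conversion outside the brain. The levodopa arm (5 rats) received nothing further that the labels name. A second arm (10 rats) also received trapidil, a vasodilator and antiplatelet drug, at 7.5 mg/kg 2 times a day, and the remaining arm (10 rats) received it at 15 mg/kg, also 2 times a day. Dosing ran for 14 days, and the striatum on the lesioned side was taken on day 15, with 1 hour stated beside the last dose. No unlesioned or undosed animals were analysed here, so all values compare levodopa-treated lesioned rats with each other. Each library is labelled as a sample of its own, and the design text gives the same number of animals as there are libraries.

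Most striatal neurons are spiny projection neurons of a direct and an indirect output pathway. Direct-pathway neurons carry the dopamine D1 receptor and make dynorphin and substance P, from Pdyn and Tac1, while indirect-pathway neurons carry the D2 receptor and make enkephalin, from Penk. In rodents, dopamine loss is known to raise Penk and lower Tac1 and Pdyn, and repeated levodopa is known to raise Pdyn. Dynorphins act mainly on the kappa receptor, enkephalins mainly on the delta and mu receptors.

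Total counts per library ran from 10838513 to 20532290. The spiny neuron marker Ppp1r1b was read in every library, at 3366 to 5744 CPM (reads scaled to a common library total). Levodopa replicate 2 stood apart from the other libraries. Its 9 summed spiny neuron markers came to 7880 CPM, against 10703 or more in every other library, and its 6 oligodendrocyte markers to 16967 CPM, the highest of all. Its 13 thalamic, hypothalamic and pallidal markers summed to 67.0 CPM, against 26.1 to 38.4 CPM elsewhere, and the choroid plexus marker Ttr stood at 23.4 CPM, against at most 2.02 CPM elsewhere; of the markers in those 2 lists, Pmch and Otx2 were at 0 in all 25 libraries. The 6 cortical projection neuron markers summed to 46.0 CPM in levodopa replicate 5, 58.3 CPM in 7.5 mg/kg replicate 1 and 36.7 CPM in 7.5 mg/kg replicate 6, against 6.44 to 12.2 CPM elsewhere. In such bulk tissue, fewer cells of a type and less RNA per cell cannot be told apart.

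Of the 8 genes, Oprk1 alone passed the test, in 1 of the 3 comparisons between arms. Kappa receptor RNA was higher with 15 mg/kg trapidil than with levodopa, by 0.68 ± 0.17 on the log2 scale (SE, n = 10 and 5; adjusted p = 0.0451, edgeR's quasi-likelihood test over all 14142 genes). That is 1 of 8 members called, against 1.31% of all genes tested in that comparison; Oprk1 and Trh, 2 of 8, were under an unadjusted p of 0.05, against 19.5% of all genes. With 7.5 mg/kg against levodopa 0 of 8 were called, against 0.0283% of all genes; Oprk1 alone was under an unadjusted p of 0.05 there, against 11.7% of all genes. DESeq2 called 0 and limma-voom 1, Oprk1, in that comparison. Between 15 and 7.5 mg/kg 0 of 8 were called, against 0.0283% of all genes, with 0 under an unadjusted p of 0.05 (3.63% of all genes) and 0 by DESeq2 or limma-voom. Both comparisons with levodopa use the same 5 levodopa libraries.

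**Figure D1:**
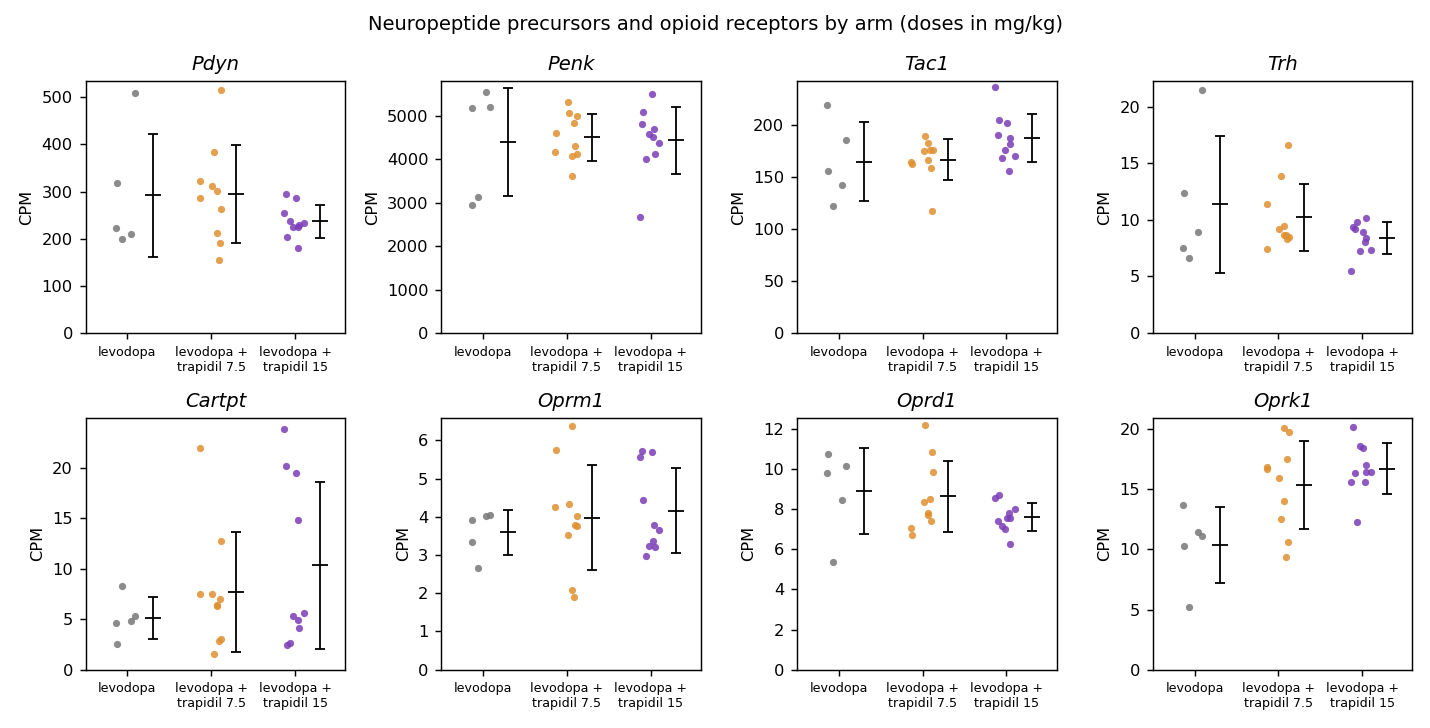
CPM of each of the 8 genes (vertical axes, linear from 0) in the levodopa, levodopa + trapidil 7.5 mg/kg and levodopa + trapidil 15 mg/kg arms; points are animals (n = 5, 10 and 10), bars the mean and SD. For Oprk1, 9 of the 10 animals at 15 mg/kg lie above the highest levodopa animal (13.7 CPM); the arms of the other 7 genes overlap broadly.

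Prodynorphin, the precursor of the dynorphins, varied widely among animals given levodopa alone. Pdyn reads in the 5 levodopa libraries came to 211, 199, 318, 223 and 509 CPM. With 7.5 mg/kg they ran from 156 to 516 CPM (median 294), and with 15 mg/kg from 180 to 295 CPM (median 231). Levodopa replicate 5 and 7.5 mg/kg replicate 1 were far above the rest, every 15 mg/kg animal lay under the highest pair of levodopa animals, and the arms overlapped. The coefficient of variation was 44.6% with levodopa, 35.2% with 7.5 mg/kg and 14.8% with 15 mg/kg; these spreads were not tested against each other. Pdyn at 15 mg/kg against levodopa had a log2 fold change of -0.30 ± 0.21 (95% interval -0.73 to 0.13, adjusted p = 0.449), and 9 of 10 animals lay below the levodopa mean. At 7.5 mg/kg against levodopa it was 0.01 ± 0.21 (adjusted p = 0.990). Without levodopa replicate 5, the 15 mg/kg value was -0.00 and the 7.5 mg/kg value 0.31; without 7.5 mg/kg replicate 1 the 7.5 mg/kg value was -0.12.

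The animals highest in Pdyn overlapped in part with those raised in cortical markers. Levodopa replicate 5 and 7.5 mg/kg replicate 1, at 509 and 516 CPM of Pdyn, were also among the 3 libraries with raised cortical markers. The remaining such library, 7.5 mg/kg replicate 6, had the lowest Pdyn of all 25, at 156 CPM. Next below those 2 animals in Pdyn, 7.5 mg/kg replicate 2 at 384 CPM, had a cortical marker sum of 6.75 CPM. The part of cortical RNA in the Pdyn values was not tested apart from a fit with 4 regional marker scores, in which the 15 mg/kg log2 difference from levodopa was -0.17 (adjusted p = 0.801). Those scores include ependymal cell and choroid plexus markers, which differed in part between these arms. Their median log2 fold changes were 1.17 (4 of 5 positive) and 0.86 (3 of 4 positive). The fit therefore cannot fully separate these scores from arm.

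Proenkephalin, the enkephalin precursor, did not separate the arms. Penk stood at 5537, 3131, 5180, 2952 and 5188 CPM in the levodopa libraries, ran from 3609 to 5310 CPM (median 4448) with 7.5 mg/kg, and from 2664 to 5507 CPM (median 4538) with 15 mg/kg. Levodopa replicates 2 and 4 formed a low pair within their arm, and 15 mg/kg replicate 6 was the lowest of all. Penk averaged 4429 ± 762 CPM with 15 mg/kg and 4398 ± 1248 CPM with levodopa (SD, n = 10 and 5), a log2 fold change of 0.01 ± 0.14 (95% interval -0.28 to 0.30, adjusted p = 0.980). With 7.5 mg/kg it averaged 4503 ± 538 CPM (n = 10), a log2 fold change of 0.03 ± 0.14 against levodopa (adjusted p = 0.941).

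Tac1, which encodes the precursor of substance P and neurokinin A, was among the 2 least variable of the 8 genes. Its levodopa values were 143, 122, 156, 219 and 186 CPM, with a range of 117 to 190 CPM (median 171) at 7.5 mg/kg and 156 to 237 CPM (median 185) at 15 mg/kg. Of the 10 animals at 15 mg/kg, 1 lay above every levodopa animal, and 9 of 10 lay above the levodopa mean. The log2 fold change at 15 mg/kg against levodopa was 0.18 ± 0.11 (95% interval -0.04 to 0.41, adjusted p = 0.363), that of 7.5 mg/kg was 0.02 ± 0.11 (adjusted p = 0.966), and 15 against 7.5 mg/kg gave 0.17 ± 0.09 (adjusted p = 0.999).

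Trh encodes the precursor of thyrotropin-releasing hormone, a peptide reported to be induced by levodopa in the lesioned rat striatum. The gene was read at 8.93, 6.60, 12.4, 7.49 and 21.5 CPM in the levodopa libraries, from 7.38 to 16.6 CPM (median 8.93) with 7.5 mg/kg and from 5.46 to 10.2 CPM (median 8.66) with 15 mg/kg. Levodopa replicate 5 was the highest of all 25 in Trh, and all 10 animals at 15 mg/kg lay below the levodopa mean while overlapping its lower members. Trh at 15 mg/kg differed from levodopa by -0.44 ± 0.21 on the log2 scale (95% interval -0.87 to -0.01, unadjusted p = 0.0449, adjusted p = 0.243). Levodopa replicate 5 carried most of that difference: without it the value was -0.07 (adjusted p = 0.860). That animal and the next highest in Trh, 7.5 mg/kg replicate 1, were also among the libraries with raised cortical markers. The remaining such library, 7.5 mg/kg replicate 6, held 8.67 CPM of Trh. The part of cortical RNA in the Trh values was not tested separately. At 7.5 mg/kg the value was -0.17 ± 0.21 (adjusted p = 0.778).

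Cartpt, the precursor of CART peptides and a gene known for its expression in the nucleus accumbens, had the widest spread of the 8. Levodopa libraries held 4.85, 8.27, 2.57, 4.64 and 5.37 CPM; the 7.5 mg/kg arm ran from 1.53 to 21.9 CPM (median 6.71) and the 15 mg/kg arm from 2.50 to 23.9 CPM (median 5.46). At 15 mg/kg the animals split: replicates 3, 6, 7 and 10 held 19.5, 23.9, 20.1 and 14.8 CPM, while the other 6 held 2.50 to 5.58 CPM, within or just under the levodopa range. The highest value was 15.6 times the lowest over the 25 libraries, and the within-arm SD of log2 CPM lay at the 99.9th percentile of all genes tested. The log2 fold change was 1.01 ± 0.54 at 15 mg/kg (95% interval -0.11 to 2.12, adjusted p = 0.313) and 0.59 ± 0.54 at 7.5 mg/kg (adjusted p = 0.684), each against levodopa. Its sign at 15 mg/kg turned in 2 alternatives, those with 4 regional or 4 glial and vascular marker scores, at -0.15 and -0.82. Some of the markers behind these scores differed between the arms, so such fits cannot fully separate them from arm.

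Markers of the ventral striatum were highest in some of the same libraries. The 5 such markers in the table summed to 317 to 430 CPM (median 389) with levodopa, 280 to 548 CPM (median 450) with 7.5 mg/kg and 388 to 545 CPM (median 455) with 15 mg/kg. The top sums of each trapidil arm, 545 CPM in 15 mg/kg replicate 7 and 548 CPM in 7.5 mg/kg replicate 9, belonged to libraries with 20.1 and 21.9 CPM of Cartpt. Other libraries with high sums had little Cartpt: 7.5 mg/kg replicate 1 had a sum of 511 CPM and 3.03 CPM of Cartpt, and 15 mg/kg replicate 5 a sum of 490 CPM and 5.34 CPM of Cartpt. In turn, 7.5 mg/kg replicate 5 held 12.8 CPM of Cartpt with a sum of 400 CPM, within the levodopa range. Drd3, a thinly read marker of that list, was highest in 15 mg/kg replicates 6, 3 and 7 (1.35, 1.00 and 0.93 CPM). Next came 7.5 mg/kg replicate 9 (0.86 CPM), and these same libraries held the most Cartpt. By contrast, Drd3 was at 0.50 CPM in 15 mg/kg replicate 10 (14.8 CPM of Cartpt) and 0.73 CPM in 7.5 mg/kg replicate 1. Of the 5 markers 0 passed the edgeR test (1 under an unadjusted p of 0.05) at 15 mg/kg against levodopa; Crym had the smallest p, at 0.65 ± 0.18 on the log2 scale (adjusted p = 0.0630). The part of ventral striatal tissue in the Cartpt values was not tested.

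**Figure D2:**
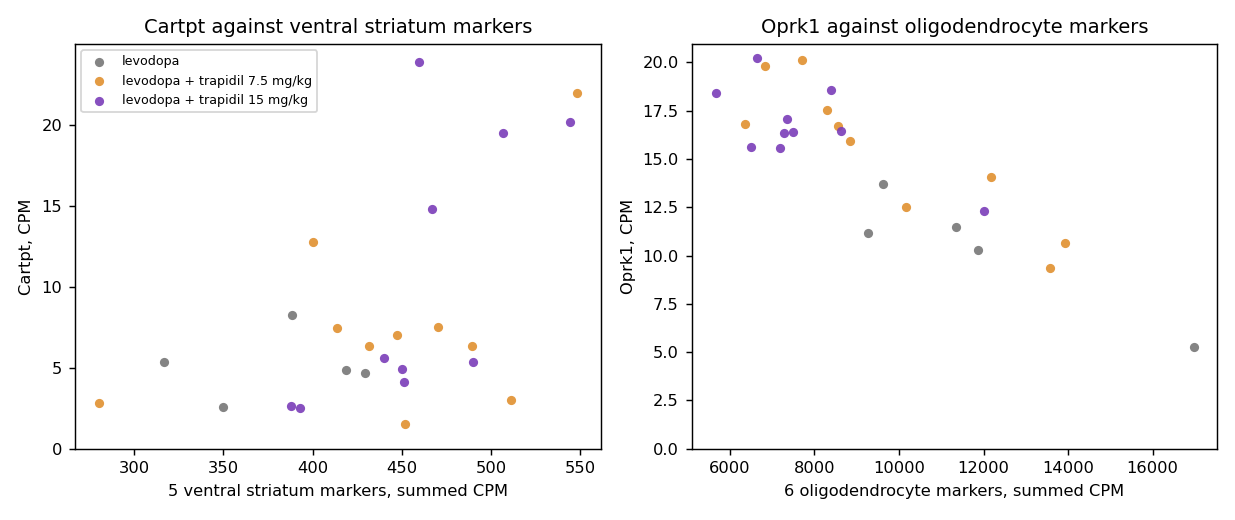
Left, Cartpt CPM against the summed CPM of 5 ventral striatum markers; right, Oprk1 CPM against the summed CPM of 6 oligodendrocyte markers, 1 point per animal, coloured by arm. Libraries with over 14 CPM of Cartpt have ventral sums between 460 and 548 CPM. The next highest in Cartpt, 7.5 mg/kg replicate 5 at 12.8 CPM, has a ventral sum of 400 CPM. Levodopa replicate 2 sits at the lower right of the Oprk1 panel with 5.24 CPM.

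Among the receptors, the mu receptor gene Oprm1, known for its patches of high expression in striosomes, was read most thinly, at 33 to 103 reads per library. Levodopa values were 4.02, 2.65, 3.34, 3.91 and 4.04 CPM, and the ranges were 1.91 to 6.37 CPM (median 3.91) at 7.5 mg/kg and 2.97 to 5.72 CPM (median 3.72) at 15 mg/kg. At each dose 4 of 10 animals exceeded every levodopa animal, and at 7.5 mg/kg 2 of 10 lay below every levodopa animal. Oprm1 had a log2 fold change of 0.20 ± 0.22 (95% interval -0.25 to 0.66, adjusted p = 0.656) at 15 mg/kg and 0.14 ± 0.22 (adjusted p = 0.828) at 7.5 mg/kg, both against levodopa. The intervals leave room for changes of either sign at this depth.

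Oprd1, the delta receptor for enkephalins, leaned the other way without passing the test. It was read at 8.43, 5.37, 10.7, 9.82 and 10.1 CPM with levodopa, at 6.72 to 12.2 CPM (median 8.08) with 7.5 mg/kg and at 6.26 to 8.68 CPM (median 7.55) with 15 mg/kg. All 10 animals at 15 mg/kg lay below the levodopa mean of 8.90 ± 2.15 CPM (SD, n = 5), and all lay above levodopa replicate 2. The log2 fold change was -0.23 ± 0.14 at 15 mg/kg (95% interval -0.51 to 0.05, adjusted p = 0.358) and -0.05 ± 0.14 at 7.5 mg/kg (adjusted p = 0.912). Under limma-voom with sample weights the 15 mg/kg value was -0.39 (adjusted p = 0.0456), the 1 alternative of 38 in which Oprd1 was called.

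Oprk1, the kappa receptor on which dynorphins act, lay above the levodopa range in most animals of both trapidil arms. The levodopa libraries held 11.5, 5.24, 10.3, 13.7 and 11.2 CPM, the 7.5 mg/kg libraries 9.36 to 20.1 CPM (median 16.3) and the 15 mg/kg libraries 12.3 to 20.2 CPM (median 16.4). At 15 mg/kg 9 of 10 animals exceeded every levodopa animal, and at 7.5 mg/kg 7 of 10 did. Oprk1 averaged 16.7 ± 2.13 CPM with 15 mg/kg and 10.4 ± 3.14 CPM with levodopa (SD, n = 10 and 5), and the 95% interval of the log2 fold change ran from 0.33 to 1.03. At 7.5 mg/kg it averaged 15.3 ± 3.64 CPM (SD, n = 10), a log2 fold change against levodopa of 0.56 ± 0.17 (95% interval 0.21 to 0.91, unadjusted p = 0.00274, adjusted p = 0.229). Between the doses, 15 against 7.5 mg/kg, the value was 0.12 ± 0.13 (95% interval -0.16 to 0.39, adjusted p = 0.999), so a dose difference was not detected.

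The Oprk1 call at 15 mg/kg stood close to the threshold, and it held in 14 of 38 alternatives. Its log2 fold change stayed positive throughout, at 0.25 to 0.80. Without levodopa replicate 2, the lowest Oprk1 library, it was 0.52 (adjusted p = 0.170). The call was also lost without levodopa replicate 1 (0.72), 3 (0.68) or 5 (0.71), without 7.5 mg/kg replicate 3, 4, 7 or 8 (0.68 each), and without any 15 mg/kg replicate other than replicate 4 (0.65 to 0.69). DESeq2 gave 0.69 (adjusted p = 0.00758) and limma-voom 0.63 (adjusted p = 0.0113). Fits with 4 regional marker scores, or without a low-count filter, lost the call. The regional scores include the ependymal cell and choroid plexus markers, which differed in part between the arms. That fit therefore cannot fully separate them from arm.

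Oligodendrocyte markers moved the opposite way to Oprk1. The 6 markers summed to 5661 to 12005 CPM (median 7314) with 15 mg/kg, against 9269 to 16967 CPM (median 11339) with levodopa. The highest levodopa sum was that of replicate 2. In the edgeR test 3 of 6 fell, where 1.31% of all genes passed, with all 6 values negative (median log2 fold change -0.60). All 6 were under an unadjusted p of 0.05, against 19.5% of all genes. Opalin, a myelin protein gene, was at -0.74 ± 0.16 (log2 scale, adjusted p = 0.0217). Within the 15 mg/kg arm, replicate 4 had both the lowest Oprk1, 12.3 CPM, and the highest oligodendrocyte sum, 12005 CPM. With 4 glial and vascular marker scores in the fit, the Oprk1 value was 0.25 ± 0.16 (adjusted p = 0.903), and with a spiny neuron score it was 0.50 ± 0.14 (adjusted p = 0.132). Those 2 fits were added after the data had been seen.

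**Figure D3:**
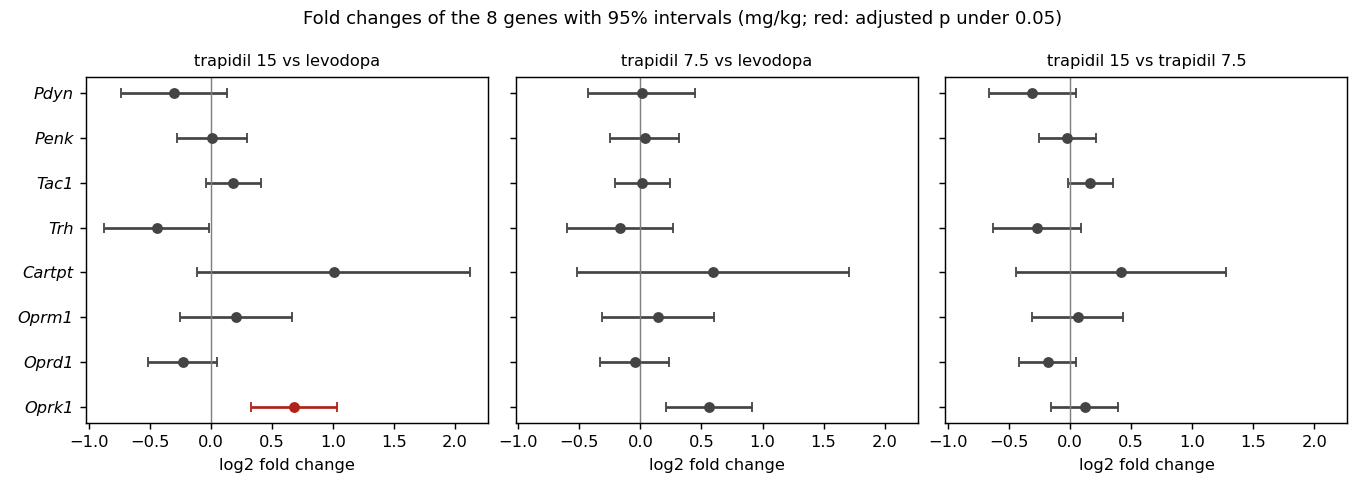
Log2 fold changes of the 8 genes with their 95% intervals from the edgeR fit, in 3 panels: trapidil 15 mg/kg against levodopa, 7.5 mg/kg against levodopa, and 15 against 7.5 mg/kg; red marks an adjusted p under 0.05. Oprk1 at 15 mg/kg is the 1 red point (0.68), and the Cartpt interval is the widest, from -0.11 to 2.12 at 15 mg/kg.

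Precursors of the 2 output pathways were also set against each other within each animal, as reads of 1 gene per 100 reads of another. These ratios are not adjusted for transcript length and are compared only among animals. Pdyn reads per 100 Tac1 reads ran from 102 to 274 (median 163) with levodopa, 88.4 to 440 (median 169) with 7.5 mg/kg and 99.0 to 154 (median 127) with 15 mg/kg. All the 15 mg/kg ratios lay in the lower part of the range of the other arms. The log2 ratio differed by -0.42 between 15 mg/kg and levodopa (exact two-sided permutation p = 0.0373, adjusted p = 0.173 over 9 ratio tests) and by -0.42 between 15 and 7.5 mg/kg (two-sided permutation p = 0.0385, adjusted p = 0.173). Neither passed after adjustment. Leaving out levodopa replicate 4, the one with the lowest ratio in its arm, gave -0.60 (adjusted p = 0.0180), and leaving out 7.5 mg/kg replicate 6 gave -0.52 between the doses (adjusted p = 0.0244). Leaving out levodopa replicate 5 gave -0.25 against levodopa (adjusted p = 0.453), and leaving out 7.5 mg/kg replicate 1 gave -0.26 between the doses (adjusted p = 0.344).

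Ratios to Penk overlapped between the arms. Tac1 reads per 100 Penk reads ran from 2.58 to 7.42 (median 3.58) with levodopa, 2.86 to 4.61 (median 3.67) with 7.5 mg/kg and 3.46 to 8.88 (median 3.99) with 15 mg/kg. The highest values, 8.88 and 7.42, came from 15 mg/kg replicate 6 and levodopa replicate 4, each the lowest in Penk and the highest in Tac1 of its arm. The log2 differences were 0.17 at 15 mg/kg (exact permutation p = 0.555) and -0.04 at 7.5 mg/kg (exact permutation p = 0.855), each against levodopa. Pdyn reads per 100 Penk reads had medians of 6.36 with levodopa, 6.37 with 7.5 mg/kg and 5.29 with 15 mg/kg, and differed by -0.26 between 15 mg/kg and levodopa on the log2 scale (exact permutation p = 0.270).

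**Figure D4:**
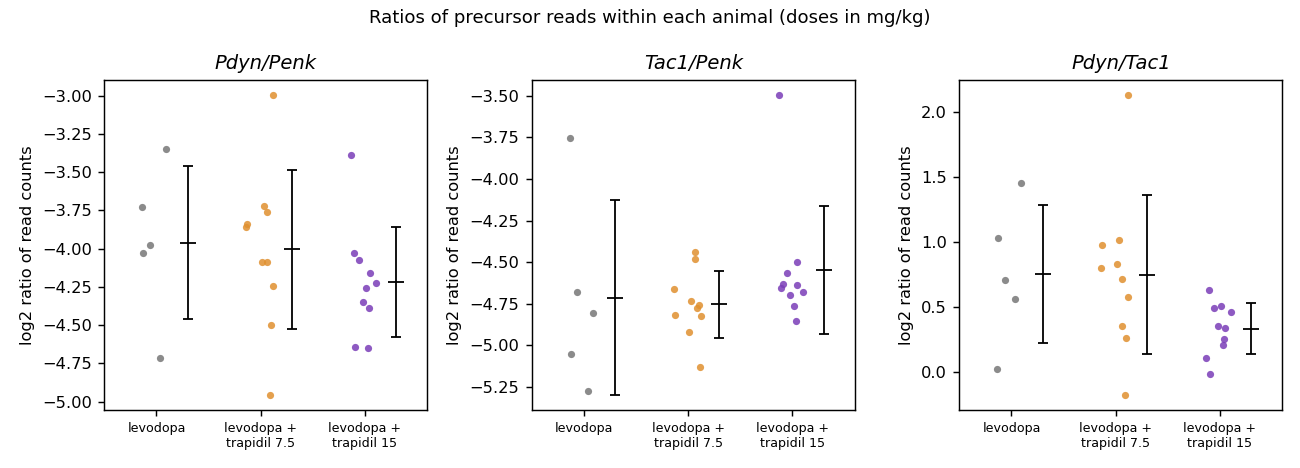
Log2 ratios of read counts within each animal (vertical axes) for Pdyn/Penk, Tac1/Penk and Pdyn/Tac1 in the 3 arms, with mean and SD (n = 5, 10 and 10). The 15 mg/kg points of Pdyn/Tac1 lie close together, between -0.01 and 0.63, while 7.5 mg/kg replicate 1 stands at 2.14.

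Animals with much Pdyn also had much Trh. Over the 25 animals, with arm means removed, log2 CPM of Pdyn and Trh correlated at r = 0.74 (permutation p = 3.7e-04, adjusted p = 0.0104 over 28 pairs) and rho = 0.66 (permutation p = 0.00175, adjusted p = 0.0421). Without levodopa replicate 5 and 7.5 mg/kg replicate 1, the 2 animals farthest out, r was 0.53. Both were among the libraries with raised cortical markers. Within the 7.5 mg/kg arm r was 0.78 and within the 15 mg/kg arm 0.03, so the relation did not hold among the 15 mg/kg animals, which also cover the narrowest Pdyn range. The 5 levodopa animals are too few for a value within that arm.

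Of the 3 pairs of receptor genes, 1 passed. Oprm1 and Oprk1 correlated at r = 0.59 (permutation p = 0.00178, adjusted p = 0.0249 over 28 pairs) and rho = 0.58 (permutation p = 0.00366, adjusted p = 0.0421). Leaving out 7.5 mg/kg replicates 6 and 10 gave r = 0.43, and within arms r was 0.64 at 7.5 mg/kg and 0.50 at 15 mg/kg. Oprd1 had r = 0.13 with Oprm1 (permutation p = 0.539) and 0.12 with Oprk1 (permutation p = 0.630). Pdyn with Oprm1 passed by rank (rho = 0.57, permutation p = 0.00451, adjusted p = 0.0421) but not by Pearson's r (0.50, permutation p = 0.0141, adjusted p = 0.132). Pdyn and its receptor gene Oprk1 had r = 0.14 (permutation p = 0.589). The other 25 pairs passed by neither measure. Shared cell content can enter each of these values and was not tested here.

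**Figure D5:**
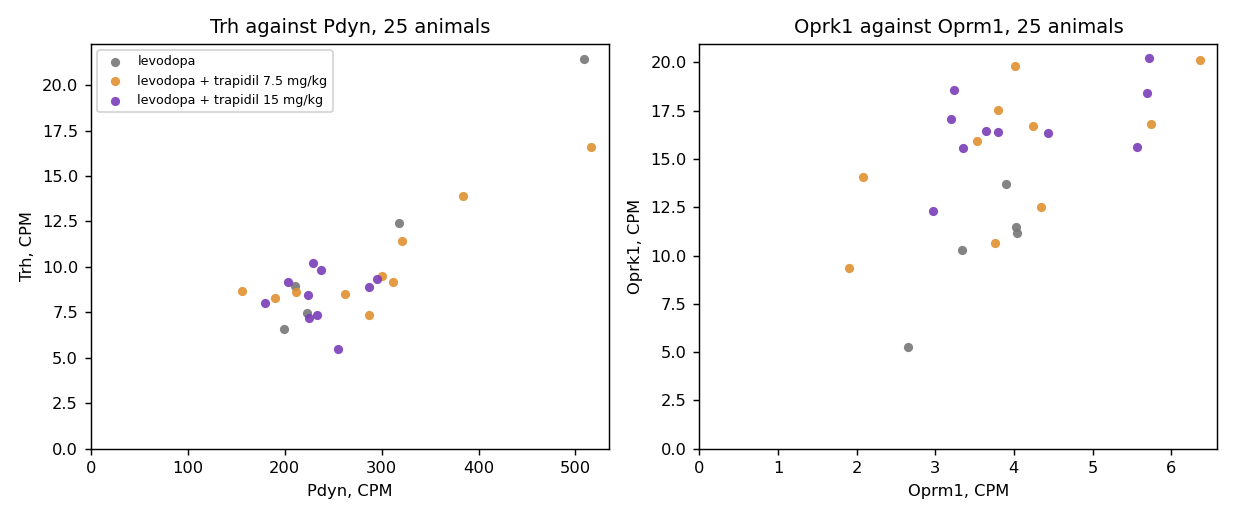
CPM of Trh against Pdyn (left) and of Oprk1 against Oprm1 (right) in 25 animals, coloured by arm. Levodopa replicate 5 (509 CPM Pdyn, 21.5 CPM Trh) and 7.5 mg/kg replicate 1 (516 and 16.6 CPM) lie at the upper right of the left panel; levodopa replicate 2 (2.65 CPM Oprm1, 5.24 CPM Oprk1) lies at the lower left of the right panel.

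The promoters of the covarying pair Pdyn and Trh, and of Cartpt, the most variable gene, are given below as the 250 bases before the annotated start, from RefSeq on the GRCr8 build. They lie at chr3:137366504-137366753 (minus strand), chr4:126301763-126302012 (minus strand) and chr2:32991236-32991485 (minus strand). RefSeq promoter entries were matched for 6 of the 8 genes. Capitals mark matches to 4 motifs: the cyclic AMP response element TGACGTCA and its shorter core CGTCA on both strands, the AP-1 site TGANTCA on both strands, and the TATA box letters TATAAA on the gene's strand.
Pdyn: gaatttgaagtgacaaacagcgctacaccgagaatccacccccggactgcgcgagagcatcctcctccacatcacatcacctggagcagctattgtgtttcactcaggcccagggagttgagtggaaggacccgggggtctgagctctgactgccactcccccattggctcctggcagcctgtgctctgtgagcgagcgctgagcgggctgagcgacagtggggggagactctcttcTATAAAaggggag
Trh: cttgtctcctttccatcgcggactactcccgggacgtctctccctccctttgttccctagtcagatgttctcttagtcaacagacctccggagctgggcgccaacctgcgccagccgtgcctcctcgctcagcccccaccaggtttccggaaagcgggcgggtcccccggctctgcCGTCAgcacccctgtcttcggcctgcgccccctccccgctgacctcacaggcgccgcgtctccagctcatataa
Cartpt: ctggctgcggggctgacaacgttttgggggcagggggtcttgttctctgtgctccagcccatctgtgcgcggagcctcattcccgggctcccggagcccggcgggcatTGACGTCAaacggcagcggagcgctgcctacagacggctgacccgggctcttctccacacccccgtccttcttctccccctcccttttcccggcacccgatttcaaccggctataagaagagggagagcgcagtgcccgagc

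Cartpt held the full TGACGTCA, 142 to 135 bases before its start, a match found in 1.59% of the 33469 RefSeq promoters of the same length; it contains the core CGTCA on both strands. Trh held the core CGTCA alone, 74 to 70 bases before its start, as did Tac1, 206 to 202 bases before its start at chr4:36645333-36645582 (plus strand), and 18.2% of all promoters hold it. Pdyn held TATAAA 13 to 8 bases before its start, present in 8.06% of promoters. TGANTCA, present in 6.34% of promoters, was found in none of the 6 matched genes. Pdyn and Trh, whose levels covaried, shared none of the 4 motifs in these windows. These matches describe letters only.

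Up to 3 genes whose arm-centred log2 CPM followed each member most closely over the 25 libraries were taken from 12241 genes of at least 1 CPM. For Pdyn these were Vdr, the vitamin D receptor (r = 0.83), Spon1 (0.78) and Igsf5 (0.76). For Penk they were Tpm1 (0.92), Ptprn (0.92) and Vgf, a granule peptide precursor (0.91). Tac1 was followed by Lrrcc1 (0.81), Dzip1l (0.80) and Abcc5 (0.79), and Trh by Tnnt1, Fbxl21 and Efr3b (0.85 each). Cartpt was followed by Gap43, a growth cone protein gene (0.87), and Kcnip4 (0.82). For Oprm1 the 3 were Ankrd50 (0.80), Prkca (0.79) and Gabrg3 (0.78), for Oprd1 they were Adgrl1 (0.83), Mapk8ip3 (0.81) and the NMDA receptor subunit gene Grin1 (0.81). Oprk1 was matched most closely by Fam49a (0.92), the AMPA receptor subunit gene Gria2 (0.92) and Lrrc4c (0.91). Without the 2 libraries farthest out in each member, r was lower, from 0.61 (Spon1 with Pdyn) to 0.88 (Tpm1 with Penk). By rank the lowest value was 0.59 (Dzip1l with Tac1). The part of shared cell content in these values was not tested. Of the genes named here, Vdr alone passed the test at 15 mg/kg against levodopa, at -2.40 ± 0.48 on the log2 scale (adjusted p = 0.0217); at 7.5 mg/kg Vdr was at -1.86 ± 0.47 (adjusted p = 0.141).

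Genes that act with the members showed few calls at 15 mg/kg against levodopa, where the median log2 fold change of all genes was 0.00. Counts in brackets are those under an unadjusted p of 0.05 in the same edgeR test, a level that 19.5% of all genes reached. Of 3 further opioid genes 0 passed [2] and all were negative (median -0.37). Pomc, another opioid precursor, had -0.37 ± 0.17, Pnoc, the nociceptin precursor, -0.73 ± 0.37, and its receptor gene Oprl1 -0.35 ± 0.17. The sum of these 3 genes was highest in levodopa replicate 2, at 25.4 CPM. Its medians were 15.0 CPM with levodopa and 11.9 CPM at 15 mg/kg. Of the receptors for tachykinins and TRH, Tacr1, the substance P receptor, had -0.26 ± 0.12 (adjusted p = 0.230), and Tacr2 and Trhr were too thinly read to be tested. Of 14 genes of prohormone processing and secretory granules, 0 passed [1] and 11 were positive (median 0.08); Pam, which amidates peptides, had the smallest p, with 0.29 ± 0.10 (adjusted p = 0.110). Of 12 peptide-degrading enzymes 0 passed [3], with a median of 0.04 and Pgpep1 at -0.20 ± 0.06 (adjusted p = 0.0806). Of 19 opioid receptor signalling partners 0 passed [4], with a median of -0.06 and the G protein gene Gnaz at 0.17 ± 0.06 (adjusted p = 0.112).

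Other striatal peptides and neuron markers stayed under the threshold at 15 mg/kg. Of 7 further neuropeptide genes 0 passed [1] (median 0.19), and Cck, the cholecystokinin precursor, had the smallest p, with 22.2 ± 7.67 CPM at 15 mg/kg and 45.0 ± 19.7 CPM with levodopa (log2 fold change -1.02 ± 0.30, adjusted p = 0.0678). Cortical markers summed to 46.0 CPM in levodopa replicate 5 and to at most 9.47 CPM at 15 mg/kg. The part of cortical RNA in the Cck values was not tested. Direct-pathway markers passed in 0 of 9 [1] (median 0.05) and indirect-pathway markers in 0 of 9 [1] (median 0.09). Markers of spiny neurons of either pathway passed in 0 of 9 [2], all positive (median 0.10). Their sums had close medians, 11626 CPM with levodopa and 11844 CPM at 15 mg/kg, while levodopa replicate 2 held 7880 CPM. Striosome markers passed in 0 of 8 [3], 7 of them positive (median 0.17), with Foxp2 at 0.33 ± 0.12 (adjusted p = 0.118). Markers of the matrix, the compartment around striosomes, passed in 0 of 5 [1], all positive (median 0.21). The sums of these matrix markers had medians of 846 CPM with levodopa and 923 CPM at 15 mg/kg. Levodopa replicate 2 was the lowest, at 571 CPM. Of 15 transcription factors linked to Pdyn, Penk and Trh (median -0.08), 1 fell [5], where 1.31% of all genes passed: Jun, a component of AP-1, stood at 49.5 ± 9.47 CPM with 15 mg/kg and 123 ± 57.4 CPM with levodopa (SD, n = 10 and 5; log2 fold change -1.32 ± 0.22, adjusted p = 0.00751). At 7.5 mg/kg against levodopa, 0 genes of any of these lists passed, with 8 of the 15 transcription factors under an unadjusted p of 0.05 (11.7% of all genes). The smallest adjusted p was that of Egr2, an early-response transcription factor gene, at -1.77 ± 0.34 (adjusted p = 0.0544).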

How the data were processed

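Polyadenylated RNA from 1 striatum per rat was sequenced. Raw read counts per gene, from 1 table deposited by the authors, were the starting point; per the submitters' processing notes, FastQC, STAR and HTSeq were used with the Rnor_6.0 build. Versions, annotation release and strand setting are not given in the sources used here, so reads of overlapping or antisense genes cannot be told apart. Arms were read from the sample titles and design text.

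From the deposited counts, genes were kept by filterByExpr, scaled by TMM and tested with edgeR 4.0.16 in R 4.3.3 (glmQLFit and glmQLFTest, all 25 libraries, arm as the 1 factor, two-sided, Benjamini-Hochberg adjustment over 14142 genes, threshold 0.05). Adjusted p-values of genes come from this edgeR test where no other tool is named. DESeq2 1.42.0 and limma 3.58.1 were alternatives, with other filters, scalings, marker scores and left-out libraries. CPM values use the TMM factors. For log2 CPM, 2 CPM was added to each value before the log was taken. Ratios and correlations were tested by permutation of animals (exact, or 100000 draws). The procedure was tested on simulated data. No pair of libraries within an arm agreed within sampling noise. Nothing links equal replicate numbers across arms, and their profiles did not deviate together, so no pairing was used.

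The 8 genes and all lists were chosen with earlier results of these data known. The text names the 8 genes, the 3 most alike genes of each (1 is not reported here), the called members of each list used (or the one with the smallest p) and markers for tissue checks; nothing was placed on Rnor_6.0 coordinates. No batch or date is stated in those sources. The p-values measure the spread between libraries, which the labels give as separate animals.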

Additional observations from a re-analysis of the deposited data

Results flagged for a closer look

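In 33 groups of values (8 genes and 3 ratios in 3 arms), 6 had 1 animal set far from the others of its arm. With normally distributed values, chance alone sets apart about 1 in 20 groups. The ratios are built from some of the 8 genes, so the groups are not independent and the 6 cannot be set directly against that rate. Penk, the enkephalin precursor, was low in 15 mg/kg replicate 6, at 11.38 log2 CPM. The same animal therefore had the highest log2 Pdyn/Penk ratio of its arm, -3.39, and the highest log2 Tac1/Penk ratio, -3.49. Tac1 was low in 7.5 mg/kg replicate 1, at 6.90 log2 CPM, and that animal had the highest log2 Pdyn/Tac1 ratio of its arm, 2.14. Oprk1 was low in 15 mg/kg replicate 4, at 3.84 log2 CPM, the library with the highest oligodendrocyte marker sum of its arm.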

How the results depend on the processing

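The count of all genes called at 15 mg/kg against levodopa, 185, was 659 with DESeq2, 715 with limma-voom, 448 with only the 2 arms, 862 at a threshold of 0.10, 2 with 4 region scores, 76 without levodopa replicate 2 and 7.5 mg/kg replicate 1, and 9 to 894 with each library left out. Fits added after seeing the data gave 18 (spiny neuron score), 2 (4 glial and vascular scores) and 3 (without levodopa replicates 2 and 5). The count of members called, 1, was 2 with limma-voom, 0 without a low-count filter and 0 under the region scores, those left-out pairs and the added scores, and 0 to 1 with each library left out. For 7.5 mg/kg against levodopa, 4 genes became 7 without a filter, 53 with DESeq2, 102 with limma-voom, 1 with only 2 arms, 11 at 0.10, 27 without levodopa replicate 2 and 7.5 mg/kg replicate 1, 10 with the spiny neuron score, 1 without levodopa replicates 2 and 5, and 1 to 70 with each library left out; limma-voom called 1 member. For 15 against 7.5 mg/kg, 4 genes became 13 with limma-voom, 13 with the region scores, 9 without the first pair, 8 with the glial scores and 4 to 8 with each library left out. The log2 Pdyn/Tac1 difference ranged from -0.60 to -0.25 (15 mg/kg against levodopa) and from -0.52 to -0.26 (15 against 7.5 mg/kg) with each animal left out. The cause of these shifts was not tested.

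A replicate block gave 0 genes and 0 members called at 15 mg/kg and 0 genes at 7.5 mg/kg against levodopa (1992 and 1451 at an unadjusted p under 0.05), with Oprk1 at 0.67 (adjusted p = 0.174); correlations of same-numbered animals ran from -0.42 to 0.21.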
